A study of Mus musculus with 4 samples.

Results

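The 8 genes described here encode the coreceptors, signalling kinases, adaptor, surface proteins and lineage factor of T cells: Cd4, Cd8a, Lck, Zap70, Skap1, Thy1, Art2b and Gata3. They were taken by symbol from a table of 16673 genes measured by RNA-seq in lineage-negative (Lin–) bone marrow cells, the marrow fraction left after cells with markers of mature blood lineages are removed. All 8 were in the table, and all 8 had a mean of at least 10 normalized counts and were tested. The mice were 2 months old and all 4 had floxed Tet3 alleles: 2 without Cre, of genotype Tet3F/F (control), and 2 with Cre at the Tie2 locus, of genotype Tie2+/cre; Tet3F/F (cKO). Each mouse gave 1 library. Tie2 is switched on in endothelial cells and in early blood cells, so that in such mice recombination is not limited to 1 blood lineage. TET3 is an enzyme that oxidises 5-methylcytosine in DNA. The question put to the data is how transcript levels in Lin– marrow differ when Tet3 is targeted.

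A T cell recognises antigen through its T cell receptor, which has no enzyme activity of its own and signals through the CD3 chains. The coreceptors CD4 and CD8 bind MHC molecules and carry the kinase LCK on their tails. LCK phosphorylates the CD3 chains, the kinase ZAP-70 docks on them, and adaptors relay the signal to gene expression and adhesion. In marrow the same genes are also read in other cells: NK cells transcribe Lck, Zap70 and Thy1, mouse plasmacytoid dendritic cells can carry CD4, some dendritic cells CD8α, stem cells low Thy1, and innate lymphoid cells GATA3.

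The reads counted to genes ranged from 28845037 to 46673855 per library. Levels below are normalized counts, meaning reads scaled by the size factor of their library. Differences are log2 fold changes of cKO over control after 1 is added to each normalized count, so the change of a low gene is understated, with 95% intervals from limma, a linear model fitted across all 16598 tested genes. Tet3 itself stood at 5056 and 6593 in control and at 6400 and 5084 in cKO (log2 fold change -0.02). Reads from exons beyond the floxed part, which the labels do not name, enter this value, so it does not check the genotype, and each direction given is that of the libraries labelled as cKO. Control replicate 2 was unlike the other libraries: mitochondrially encoded genes took 8.21% of its reads, against 0.993% to 1.26% in the others, and its correlations with them over genes were 0.93 to 0.95. Xist was high in both cKO-labelled libraries (87442 and 48951) and near absent in the controls (5.54 and 9.57), while the Y-linked Ddx3y had 0 reads in the former and 3158 and 3672 normalized counts in the latter. Genotype and sex therefore cannot be told apart in any difference given here. The stem and progenitor marker list, which stands for the labelled cell fraction, was present in every library: 11 of 11 genes were in the table, none at 0, with summed levels of 27007 and 27225 in control and 33528 and 32821 in cKO.

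Among the 8 genes, Art2b, Skap1, Zap70, Cd4 and Thy1 had higher levels in both cKO-labelled libraries, with log2 fold changes from 1.21 to 2.25, while Lck lay closer together between the groups and Cd8a and Gata3 overlapped. All 8 log2 fold changes were above 0, with a median of 1.29 against 0.01 over all tested genes, of which 50.8% were above 0. The 8 genes were chosen with earlier results of these data known, so the shares over all genes given here are a description. The median of the 8 was 1.42 without control replicate 2, 0.97 without control replicate 1, 0.87 without cKO replicate 1 and 1.51 without cKO replicate 2. In 6 of the 8 genes both cKO-labelled libraries were above both controls, an order found in 19.2% of all tested genes, with the reverse in 19.5%. None of the 8 passed limma's test at a Benjamini-Hochberg adjusted p under 0.05, which 0.0301% of all tested genes did in the higher direction and 0.0422% in the lower. Without adjustment, 5 of the 8 had a limma p under 0.05, all higher, against 3.49% of all tested genes in that direction and 2.61% in the lower. On the recovered reads edgeR called 0 of the 8 (0.0301% of all genes were called higher), and DESeq2 called Art2b, Skap1 and Thy1 (0.483% of all genes were called higher and 0.251% lower). More or fewer cells of a type and more or less RNA per cell cannot be told apart in RNA from bulk cells. A level below therefore speaks for the fraction as a whole.

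**Figure D1:**
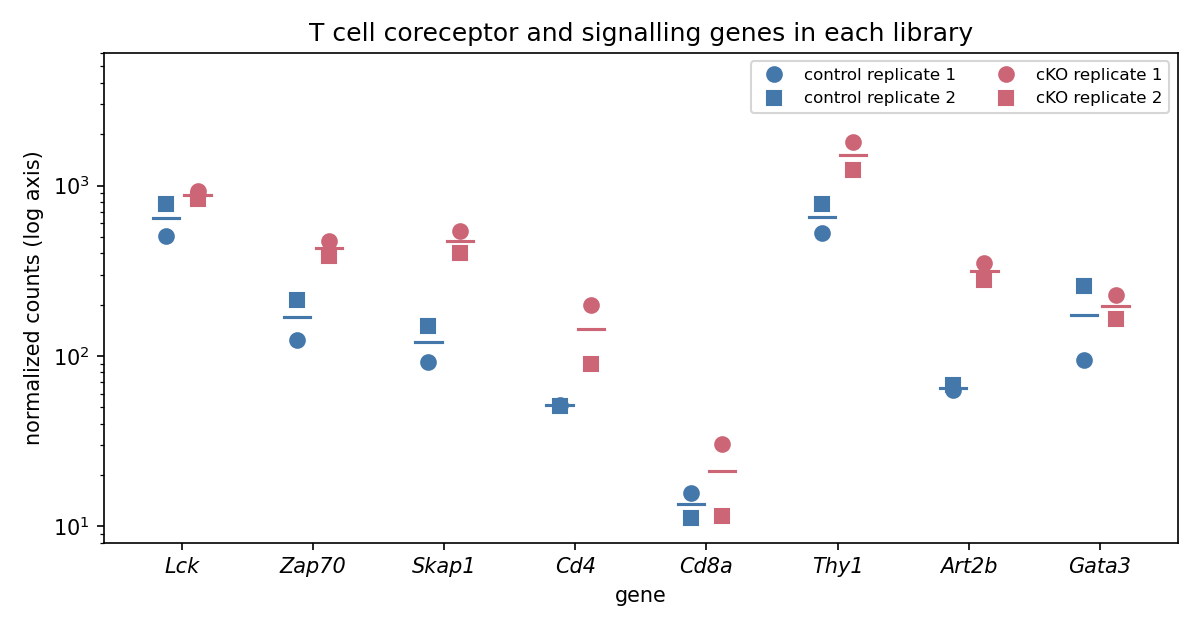
Normalized counts (log axis) of the 8 genes in each of the 4 libraries, with blue for control, red for cKO, circles for replicate 1, squares for replicate 2 and a short line at each group's mean. Art2b, Skap1, Zap70, Thy1 and Cd4 are separated by group, Lck by a narrow gap, and Cd8a and Gata3 overlap.

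Promoter windows are shown for 4 of these genes, because the genes differ in how far apart the groups lay. Of the 8 genes, 5 had a promoter in the RefSeq table used here (GRCm38.p6, another build than the mm39 of the reads), with 8 windows in all, since Lck has 2 and Zap70 has 3. Each window is the 250 bases before a RefSeq transcription start, 5′ to 3′ on the gene's strand. Capitals mark GGAAG, a form of ETS family binding site, and TGTGGT, a form of RUNX site. Each was searched on both strands (so also CTTCC and ACCACA), here with no overlap between them. Other forms of these sites were not searched and are not marked. The windows lie at chr7:101581162-101581411 on the minus strand for Art2b, chr1:36761548-36761797 on the plus strand for the most upstream start of Zap70, chr4:129573642-129573891 and chr4:129558373-129558622 on the minus strand for the upstream and downstream starts of Lck, and chr2:9878601-9878850 on the minus strand for Gata3.
Art2b: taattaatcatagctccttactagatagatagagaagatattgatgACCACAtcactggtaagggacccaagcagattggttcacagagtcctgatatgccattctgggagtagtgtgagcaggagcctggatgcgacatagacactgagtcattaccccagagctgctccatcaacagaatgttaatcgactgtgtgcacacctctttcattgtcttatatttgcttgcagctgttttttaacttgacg
Zap70: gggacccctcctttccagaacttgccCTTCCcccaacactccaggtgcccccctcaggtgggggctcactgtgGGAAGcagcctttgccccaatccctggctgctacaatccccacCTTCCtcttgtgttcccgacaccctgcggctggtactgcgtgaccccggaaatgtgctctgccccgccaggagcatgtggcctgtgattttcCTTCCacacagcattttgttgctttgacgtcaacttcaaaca
Lck upstream start: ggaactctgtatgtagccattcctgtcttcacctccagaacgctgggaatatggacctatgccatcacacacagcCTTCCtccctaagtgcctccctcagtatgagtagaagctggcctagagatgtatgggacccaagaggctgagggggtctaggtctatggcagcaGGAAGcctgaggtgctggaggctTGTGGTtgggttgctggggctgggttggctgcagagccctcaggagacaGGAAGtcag
Lck downstream start: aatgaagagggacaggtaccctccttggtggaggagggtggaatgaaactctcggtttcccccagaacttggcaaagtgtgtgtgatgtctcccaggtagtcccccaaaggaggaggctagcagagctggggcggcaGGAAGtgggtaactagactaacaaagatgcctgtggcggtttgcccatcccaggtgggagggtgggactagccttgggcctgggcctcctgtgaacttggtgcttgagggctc
Gata3: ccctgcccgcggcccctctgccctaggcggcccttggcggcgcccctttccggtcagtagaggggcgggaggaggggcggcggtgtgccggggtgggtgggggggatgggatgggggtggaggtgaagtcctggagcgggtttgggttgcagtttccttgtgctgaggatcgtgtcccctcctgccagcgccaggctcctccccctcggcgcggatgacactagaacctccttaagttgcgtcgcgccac
GGAAG occurred 4 times in the Zap70 window shown, 3 times in the upstream and 1 time in the downstream Lck window, and not in those of Art2b and Gata3. It is a common string, found in 64.1% of all 32807 windows of that length. TGTGGT, found in 14.0% of windows, occurred 1 time each in the upstream Lck window, the Art2b window and the second window of Zap70. The Gata3 window held 19 CpG sites, the dinucleotides that carry DNA methylation in mammals. The others held 3 for Art2b, 6, 2 and 7 for the 3 windows of Zap70, 1 and 3 for Lck and 0 for Cd8a. The median over all windows was 6, with quartiles of 2 and 16. These are descriptions of the letters. A link between them and the levels was not tested, and methylation was not measured in these libraries.

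The coreceptor genes had the lowest mean levels of the 8 per exon length in control and in cKO. In control replicate 1, however, Cd4 was just above Skap1 (12.8 against 12.4 normalized counts per kilobase). Cd4, which encodes the coreceptor for MHC class II on helper T cells, had 51.7 and 51.05 normalized counts in control and 199.6 and 89.6 in cKO. Both cKO-labelled libraries lay above both controls, but they differed from each other by more than counting error, with exact Poisson 95% intervals of 170.8 to 231.9 and 70.83 to 111.8. The log2 fold change was 1.36 (SE 0.53, 95% interval 0.13 to 2.60; limma with Benjamini-Hochberg adjusted p = 0.76), and it was 0.79 without cKO replicate 1 and 1.94 without cKO replicate 2, while leaving out control replicate 2 left it at 1.36. Cd8a, the coreceptor chain for MHC class I on cytotoxic T cells, had 15.7 and 11.2 normalized counts in control and 30.4 and 11.5 in cKO, from only 17, 14, 26 and 10 reads. The groups overlapped, and a difference was not detectable at this depth and spread (log2 fold change 0.47, 95% interval -1.55 to 2.50). Its sign rested on 1 library, being -0.19 without cKO replicate 1, and it was 0.25 without control replicate 2. The Poisson intervals cover counting error only. Cd8b1, the gene of the other CD8 chain, was not in the table, so CD8 is described here by Cd8a alone.

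The 2 kinases differed in how far the groups lay apart. Lck, the Src family kinase held by the coreceptor tails, had 503 and 781 normalized counts in control and 926 and 836 in cKO. The cKO libraries were both higher, but the gap to control replicate 2 was small, and the log2 fold change was 0.49 (SE 0.28, 95% interval -0.15 to 1.13; limma with Benjamini-Hochberg adjusted p = 0.76). Leaving out control replicate 1 gave 0.17, and leaving out control replicate 2 gave 0.81. Zap70, the kinase that docks on phosphorylated CD3 chains, had 124 and 214 in control and 475 and 387 in cKO. Both cKO-labelled libraries were well above both controls, and the difference was 1.39 on the log2 scale (SE 0.37, 95% interval 0.54 to 2.25), which did not pass limma (Benjamini-Hochberg adjusted p = 0.75) or DESeq2 (adjusted p = 0.0939). It was 1.001 with control replicate 1 left out and 1.78 with control replicate 2 left out.

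Skap1, an adaptor that links the T cell receptor to integrin adhesion, had 92.3 and 149 normalized counts in control and 540.5 and 401 in cKO. The groups did not overlap, and the lower cKO library had more than the sum of both controls. The log2 fold change was 1.98 (SE 0.37, 95% interval 1.11 to 2.84; limma with Benjamini-Hochberg adjusted p = 0.41). DESeq2 on the recovered reads called it higher (adjusted p = 0.000544), and the log2 fold change was 2.32 when control replicate 2 was dropped and 1.64 when control replicate 1 was; over all alternatives the adjusted p ran from 0.000544 to 1.0.

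The surface genes both lay apart between the groups. Thy1, a glycoprotein anchored to the membrane by lipid and found on mouse T cells, had 529 and 778 normalized counts in control and 1795 and 1233 in cKO. All counts of cKO were above those of control, and the log2 fold change was 1.21 (SE 0.29, 95% interval 0.54 to 1.88; limma with Benjamini-Hochberg adjusted p = 0.66). DESeq2 called it higher (adjusted p = 0.0335), and over all alternatives the adjusted p ran from 0.0335 to 1.0. The log2 fold change was 0.94 with control replicate 1 left out and 1.49 with control replicate 2 left out. Art2b, a surface enzyme that transfers ADP-ribose to proteins on T cells, had 62.8 and 67.0 normalized counts in control and 350.2 and 278 in cKO. These were the narrowest control values beside Cd4 and the furthest separation of the 8 genes, 4.84-fold between the group means, and a difference of 2.25 on the log2 scale (SE 0.37, 95% interval 1.38 to 3.12; limma with Benjamini-Hochberg adjusted p = 0.28). DESeq2 called it higher (adjusted p = 1.23e-05). With control replicate 1 dropped the log2 fold change came to 2.20, and with control replicate 2 dropped it came to 2.30. Over all alternatives the adjusted p ran from 1.23e-05 to 1.0. Art2b has a near-identical neighbour, Art2a, with which the counting could split reads. Art2a had 14.8 and 3.19 normalized counts in control and 63.0 and 31.0 in cKO, and the 2 genes added together gave a log2 fold change of 2.26 (SE 0.36; limma with Benjamini-Hochberg adjusted p = 0.26).

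Gata3, the transcription factor that guides early T cell development and helper and innate lymphoid type 2 cells, did not separate the groups. It had 94.2 and 255 normalized counts in control and 226 and 165 in cKO, so the widest spread was between the 2 controls. The log2 fold change was 0.32 (SE 0.51, 95% interval -0.88 to 1.52; limma with Benjamini-Hochberg adjusted p = 0.89). Leaving out control replicate 1 gave -0.40, and leaving out control replicate 2 gave 1.03.

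**Figure D2:**
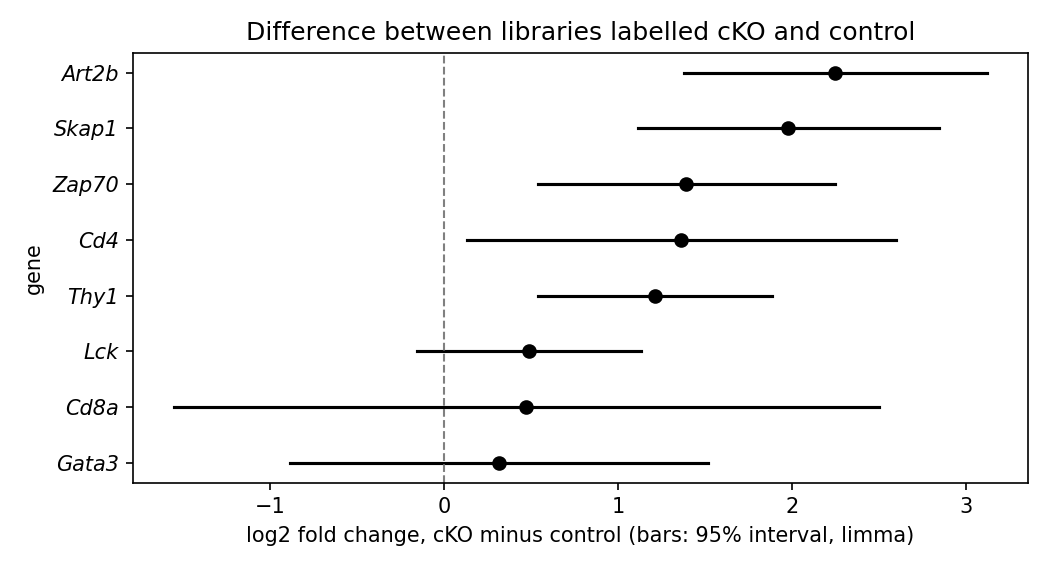
Log2 fold change of each of the 8 genes, cKO minus control (points), with limma's 95% interval (bars) and a dashed line at 0. The intervals of Art2b, Skap1, Zap70, Thy1 and Cd4 lie above 0 without adjustment for the number of genes, and those of Lck, Cd8a and Gata3 include it.

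Levels between genes were compared per kilobase of exon model, from GENCODE M21. In the control libraries Lck (219 ± 67.0 normalized counts per kilobase, SD, n = 2) and Thy1 (218 ± 58.7) were at the top and did not differ beyond their spread. Zap70 (56.4 ± 21.3) and Gata3 (43.9 ± 28.6) came next, and their values overlapped. Art2b (22.9 ± 1.05), Skap1 (16.2 ± 5.38), Cd4 (12.7 ± 0.115) and Cd8a (3.69 ± 0.881) followed, with Skap1 and Cd4 within the spread of Skap1. In the cKO-labelled libraries the order was Thy1 (506 ± 133), Lck (301 ± 21.6), Zap70 (144 ± 20.8), Art2b (111 ± 18.05), Skap1 (63.1 ± 13.2), Gata3 (49.3 ± 10.8), Cd4 (35.9 ± 19.3) and Cd8a (5.75 ± 3.67). Art2b thus stood above Gata3 in both cKO-labelled libraries. In control it was close to Gata3 in replicate 1 (22.2 against 23.7) and below it in replicate 2 (23.7 against 64.2). In cKO the values of Gata3 overlapped with those of Skap1 and of Cd4, while both values of Skap1 were above both of Cd4. Lck in control was well above Cd3e, a chain of the receptor complex it acts on (29.96 ± 19.0 per kilobase), and in cKO less so (92.1 ± 29.1).

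The receptor and CD3 chain genes gave a scale for the T cell genes within each library. The mean log2 level of Cd3d, Cd3e, Cd3g and Cd247 was 5.89 and 6.85 in control and 8.57 and 7.98 in cKO, a difference of 1.91. Skap1 kept nearly the same distance from this mean, at 0.66 and 0.38 log2 units above it in control and 0.51 and 0.67 in cKO, and Art2b was also near it in all libraries, from -0.76 to 0.15. Lck was 3.09 and 2.77 units above it in control and 1.28 and 1.73 in cKO, so that its distance was smaller in cKO by a mean of 1.42 units, and the groups did not overlap. Gata3 was above the CD3 mean in both controls (0.69 and 1.16) and below it in both cKO-labelled libraries (-0.74 and -0.60). Zap70 (difference -0.52), Thy1 (-0.70) and Cd4 (-0.55) lay between, with overlap between the groups for Cd4 alone of these, and Cd8a had -1.44 from few reads. Of 2 other signalling genes, the adaptor gene Lat had a difference of -1.76 and the Src family kinase gene Fyn -1.54, near those of Lck and Gata3, while that of Skap1 was 0.07. Each difference is the gene's own log2 fold change minus the 1.91 of the CD3 mean. Lat, Fyn, Lck and Gata3 had log2 fold changes of 0.15, 0.37, 0.49 and 0.32. Genes with little change of their own thus lie far below 0 on this scale, and no fall in their levels is shown. The distances share the same CD3 values and were not tested, and 2 libraries against 2 cannot give an exact permutation p below 0.33.

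**Figure D3:**
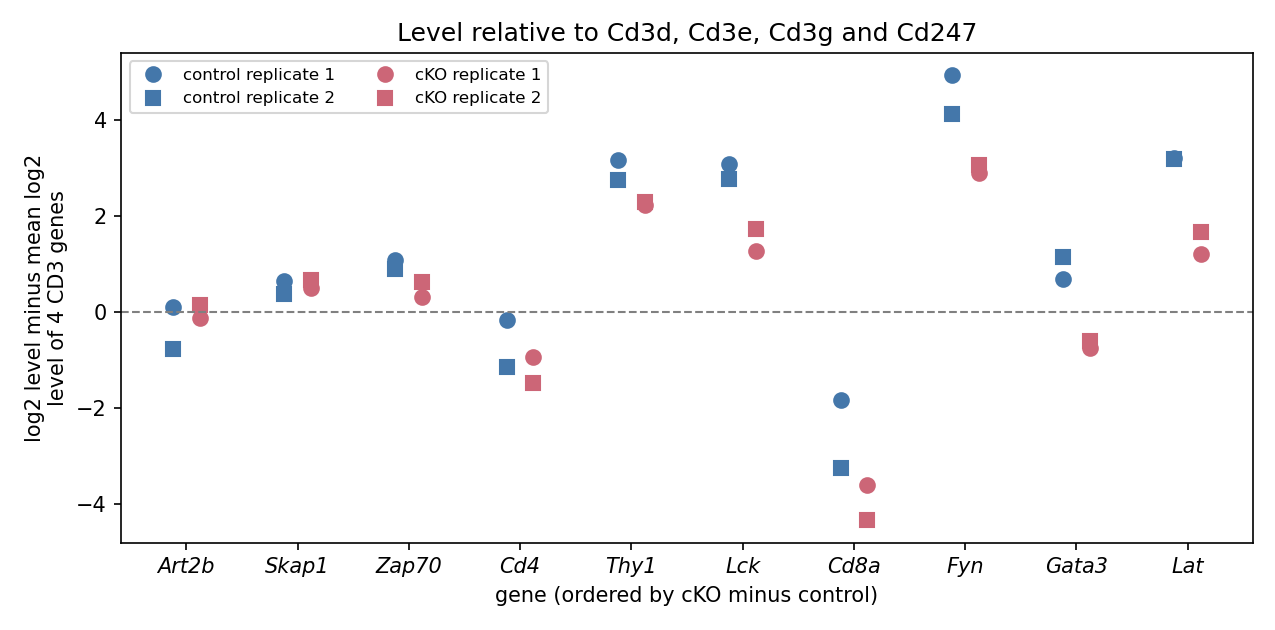
Log2 level of each gene minus the mean log2 level of 4 CD3 genes in the same library, with colours and symbols by group and replicate and genes ordered by the difference between the groups. Art2b and Skap1 overlap between the groups near 0, while Lck, Fyn, Gata3 and Lat lie lower in both cKO-labelled libraries.

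Genes of the same pathway were counted in fixed lists, which were chosen with earlier results of these data known. The shares over all genes given beside them are therefore background and no test of the lists. Of 163 distinct tested genes in all lists, those of other cells included, 0 passed limma over all genes. At an unadjusted limma p under 0.05 there were 44 higher and 6 lower (3.49% and 2.61% of all tested genes), edgeR called 0 (0.0301% of all genes higher and 0.0422% lower), and DESeq2 called 18 higher and 4 lower (0.483% and 0.251%). Of 11 receptor and CD3 chain genes listed, 8 were in the table, and in all 8 both cKO-labelled libraries lay above both controls (median log2 fold change 1.67), with Cd3g at 48.9 and 140.4 against 523 and 420.5 normalized counts. Of 24 other proximal signalling genes, 20 had a log2 fold change above 0 (50.8% over all tested genes), with a median of 0.35. Without overlap, 12 were above and 2 below (19.2% and 19.5% over all tested genes). DESeq2 called 5 of the 24 higher, against 0.483% of all genes, and 0 lower. Among them were Txk, a Tec family kinase (63.7 and 121 against 470.5 and 270.0), Themis, a regulator of T cell selection in the thymus (29.5 and 14.4 against 167 and 117), Sh2d2a, an adaptor that binds LCK (103 and 87.7 against 498 and 247), and Rasgrp1, an activator of RAS (103 and 200.2 against 623 and 371). Lat, the adaptor phosphorylated by ZAP-70, is in the same list and overlapped between the groups, with 546 and 1050.4 in control and 879 and 803 in cKO. Fyn had 1805 and 1994 in control and 2846 and 2108 in cKO, with a log2 fold change of 0.37.

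Of 17 inhibitors of this signalling, 12 had a log2 fold change above 0 (50.8% over all tested genes) and 5 below. Without overlap, 5 were above and 1 below (19.2% and 19.5% over all tested genes). The median was 0.33, and DESeq2 called 0. Their smallest p-values belonged to Sit1, a transmembrane adaptor that dampens receptor signalling, which had 2 reads in each control library and 30 and 13 in cKO, too few for a fold, and to Dok1, with 1254 and 1574 normalized counts in control and 921 and 1090.3 in cKO. Of 17 other T cell surface genes 16 were in the table, all but Cd8b1. Of these, 14 were above 0 and 2 below, with a median of 0.77. Without overlap, 11 were above and 1 below. Among them the costimulatory receptor gene Cd28 had 191 and 74.97 in control and 616 and 448 in cKO. Cd2, an adhesion receptor gene, had 66.5 and 57.4 against 223 and 169. DESeq2 called these 2 of the list higher and 0 lower, against 0.483% and 0.251% of all genes. Of 13 T lineage transcription factors 11 were above 0 and 2 below, with a median of 0.62. Without overlap, 8 of them were above and 1 below. DESeq2 called Lef1 (40.6 and 63.0 against 202 and 180.4) and Tbx21 (56.3 and 113 against 397 and 226) higher, and 0 lower. The shares over all genes were again 0.483% and 0.251%. Zbtb7b, the factor of CD4 lineage choice, overlapped between the groups (2719 and 1606 against 1767 and 2147), with a log2 fold change of -0.10. Its mean per kilobase of exon was 387 in control and 350 in cKO, far above Cd4 (12.7 and 35.9). Which cells carried it was not tested.

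**Figure D4:**
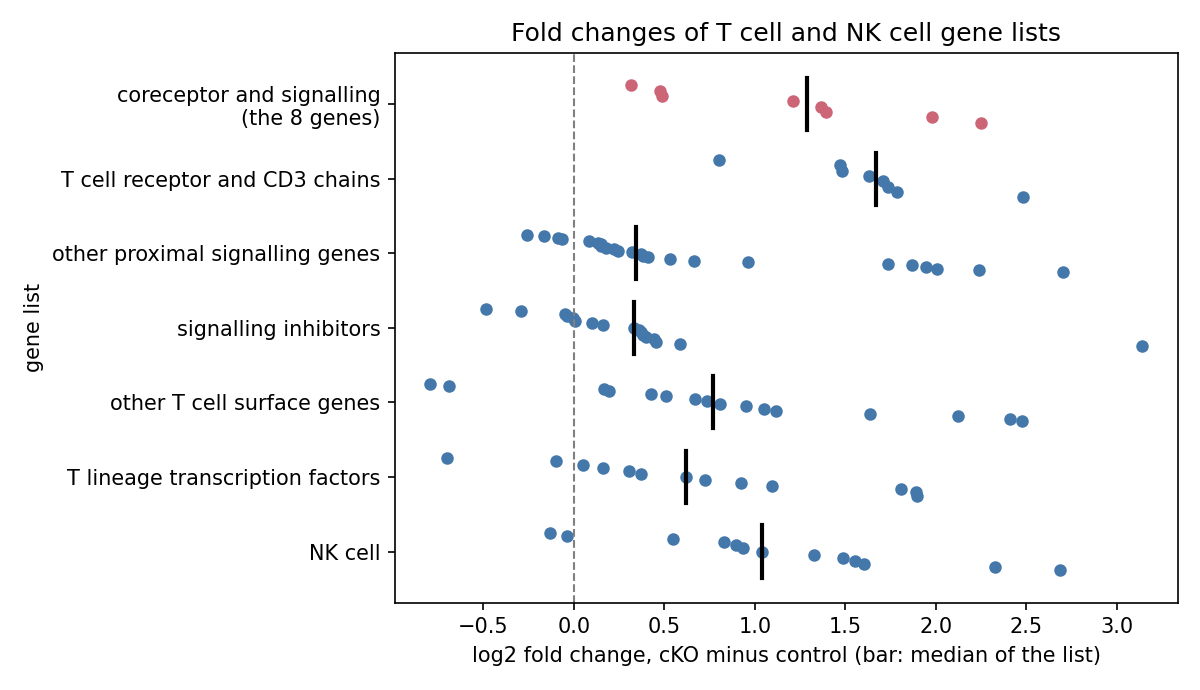
Log2 fold changes, cKO minus control, of the 8 genes (red) and of 6 fixed gene lists (blue, 1 point per gene), with a bar at each list's median and a dashed line at 0. The receptor and CD3 genes all lie above 0, while the signalling genes lie on both sides of it, from -0.26 upward.

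Markers of other cells that can transcribe these genes were also measured, in lists chosen with earlier results of these data known. The counts without overlap below are to be read beside 19.2% above and 19.5% below over all tested genes. Of all tested genes, 50.8% had a log2 fold change above 0. Of 13 NK cell genes, 11 had a log2 fold change above 0 and 9 were above without overlap (median 1.04), none was at 0 in any library, and their summed level was 7387 to 10243 in control and 11166 to 11575 in cKO. Nkg7, a gene of a granule membrane protein that was singled out after its values were seen, made up most of the control sums. It had 8474 and 4671 in control and 4975 and 6616 in cKO, a log2 fold change of -0.13. The other 12 genes summed to 1769 and 2716 in control and 6599 and 4549 in cKO. These sums did not overlap, but Nkg7 was set aside with its values known, so they are a description. Il2rb was the largest part of them in each library. Klrb1c, an NK receptor gene, had 98.8 and 112 against 625 and 454, and Il2rb, a cytokine receptor chain of NK and T cells, 698 and 1099 against 3125 and 2271. DESeq2 called both higher, against 0.483% of all genes. Of 9 type 2 innate lymphoid genes 5 were in the table, 2 of them above and 1 below without overlap. Il9r was at 0 in control replicate 2, and the summed levels were 1844 and 2739 in control and 3878 and 2200.04 in cKO. Of 11 plasmacytoid dendritic genes, 10 were in the table, with 4 above and 2 below without overlap. Their median was 0.37, with a summed level of 33062 to 37740 in control and 36625 to 43245 in cKO. Of 9 genes of type 1 conventional dendritic cells, 3 were above and 1 below without overlap. Their median was 0.45, with a summed level of 13699.5 to 17604 in control and 15987 to 18641 in cKO. Of 13 B lineage genes 12 were in the table, 5 above without overlap (median 0.53), with Igll1 at 0 in control replicate 2 and summed levels of 4358 and 5070 in control and 8476 and 5308 in cKO. DESeq2 called Clec9a, a receptor gene of type 1 conventional dendritic cells, higher (378 and 402 against 1037 and 962). It also called Blnk, a B cell adaptor gene, higher (174 and 191 against 667 and 350.4), against 0.483% of all genes. Of the 9 type 1 dendritic genes, 3 had a log2 fold change below 0. The lowest was that of Naaa, -1.11, with 4153 and 2784 in control and 1234 and 2000 in cKO. The stem and progenitor list, which could carry Thy1, had 4 of 11 above without overlap (median 0.27). Of 10 marrow macrophage genes 9 were in the table, 2 above and 2 below without overlap (median 0.16, 2366 to 3332 and 2555 to 3792). The stromal list, whose cells can carry Thy1 as well, had 5 of 8 below and 1 above without overlap (median -1.18, 21373 to 22095 and 6535 to 10219). DESeq2 called 4 of the 8 lower (Sparc, Bglap, Col1a1 and Col1a2), against 0.251% of all genes. It called 0 genes of the innate lymphoid, plasmacytoid, stem and macrophage lists. The part of each of these cell types in the levels of the 8 genes was not tested.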

How the data were processed

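RNA-seq of Lin– marrow from 4 mice was used. The authors deposited a signal per gene: read counts divided by the size factor of the library. The submitters' processing notes name DESeq2, SAMtools, featureCounts, STAR (2.7.9a) and Trim Galore (0.6.7), with the build mm39. Settings, strand and annotation: not given in the sources used here. Columns named wild type were taken as control samples by number. Each value was a whole multiple of 1 read (100%, within 0.1 read), so reads were recovered by division.

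Values were tested with limma 3.58.1 in R 4.3.3 after log2(value + 1), with a variance trend, two-sided, for the 16598 genes whose mean reached 10, and p-values were adjusted by Benjamini-Hochberg over all of them. The alternatives changed the pseudocount (0.5, 10), the filter (none, a mean of 50), the scaling (TMM, quantile), the replicate block, the libraries (each left out), the genes (X and Y left out) or the tool (DESeq2 1.42.0 or edgeR 4.0.16 quasi-likelihood on recovered reads). Adding Art2a to Art2b was chosen after seeing the data. The fits were tested on simulated data. Exon lengths and chromosomes (97.2% of genes) came from GENCODE M21 by symbol. The genes, lists and the rule for named genes (the 8 genes, up to 4 per list with the smallest p, a few set checks and 6 genes of the most similar profile) were chosen with earlier results of these data known. Rasgrp1 and Nkg7 were named after their values were seen. A gene the rule takes is not reported here.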

Additional observations from a re-analysis of the deposited data

How the results depend on the processing

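Over all genes, limma called 5 higher and 7 lower. It called 2 higher with a mean of at least 50 and 2 with quantile normalization, 1 higher and 1 lower with X and Y genes left out, and 4 to 232 higher and 5 to 161 lower with 1 library left out, the most without control replicate 1, which leaves replicate 2 as the lone control, assumed to vary like the other group; lower calls were 22 without cKO replicate 1 and 12 without cKO replicate 2. DESeq2 called 77 higher and 40 lower, and 3 of the 8 T cell genes; with 1 library left out limma called 0 to 1 of them. Their median log2 fold change moved by less than the spread between libraries, from 0.87 to 1.51 with 1 library left out. Of 112 values of the 8 genes under alternatives, 106 kept direction and call, 4 became called (Art2b 2 times, Skap1, Thy1) and 2 changed sign. A kept call meant not called, since none of the 8 genes passed in the main fit. The replicate block, the filters and leaving out X and Y genes cannot change a gene's fold change, so the 112 are not separate checks. They include the sum of Art2b and Art2a. With 1 library left out, Cd8a ran from -0.19 (without cKO replicate 1) to 1.14 and Gata3 from -0.40 (without control replicate 1) to 1.03. Other named genes that changed sign were Lat (-0.32 without control replicate 1, up to 0.62), Zbtb7b (0.28 without control replicate 1 and 0.04 without cKO replicate 1, down to -0.48), Nkg7 (0.30 without control replicate 1 and 0.073 without cKO replicate 1, down to -0.56) and Tet3 (0.020 with quantile normalization, 0.17 without control replicate 2 and 0.15 without cKO replicate 2, down to -0.21); the cause was not tested. The replicate block gave 3 higher and 5 lower genes and called 0 of the 8. Same-numbered libraries did not deviate together (correlation -0.07 over genes), and the labels tie the numbers to nothing shared. Depth limited Cd8a most, with 10 to 26 reads a library, and it dropped out with a mean of at least 50.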

Other observations

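The genes outside the 8 whose levels followed their mean profile most closely over the 4 libraries were Zcchc18, Cd22, Apol7e, Ifi213, Ppp1r16b and Gm43511. Likeness was the root mean square distance of centred log2 levels, 0.033 for Zcchc18 and 0.073 to 0.084 for the others, among genes with a mean of at least 50 normalized counts. The mean profile of the 8 genes was -0.82 and -0.36 in control and 0.88 and 0.30 in cKO, in log2 units about its own mean. Cd22, a lectin receptor gene of B cells, had 184 and 235 normalized counts in control and 524 and 364 in cKO, and Ifi213, an interferon-inducible gene, had 80.3 and 122 against 306 and 182. With only 4 libraries, many genes lie close to any such profile, and the distances are a description.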
